A study of Homo sapiens with 9 samples.

Results

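Planar cell polarity is the system by which the cells of a sheet share a common direction within the plane of the tissue. Of the 62710 genes in the deposited count table, 10 core and effector genes of this system were picked by symbol: VANGL1, VANGL2, CELSR1, CELSR2, CELSR3, PRICKLE1, SCRIB, PTK7, DVL2 and FUZ. All 10 were present and all 10 passed the filter on low counts. The cells were H9, an established line of human embryonic stem cells, of wild-type genotype and unmodified in every group. They grew on PDMS (silicone) plates coated with Matrigel for 72 h in a medium that keeps them pluripotent, then for 48 h in N2B27 medium with SB431542 and LDN. These compounds block the Activin/TGF-beta and BMP branches of SMAD signalling, which turns the cells towards neuroepithelium. For a further 24 h, with the inhibitors continued, the plate was kept flat (control, 3 libraries), bent to a concave shape (3 libraries) or bent to a convex shape (3 libraries). The design set each pair of plate shapes against each other. Libraries are named below by plate shape and replicate number, such as flat 2. All groups are 1 cell line. Whether the 3 libraries of a shape are separate cultures is not stated, and the p-values below therefore speak only of the scatter among these 9 libraries, which may be technical.

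In a polarised epithelium the core proteins sort to opposite faces of each cell. CELSR proteins are large cadherins that link neighbouring cells, VANGL and PRICKLE proteins gather on one face, and Frizzled receptors with Dishevelled (DVL) proteins gather on the other. The asymmetry is passed to small GTPases and myosin, and in the neural plate it drives the convergent extension and apical constriction that narrow, bend and close the neural tube. Mouse embryos that lack Vangl2, Celsr1, Scrib or Ptk7 function fail to close the tube along most of its length. Since the system acts largely through where its proteins sit in the cell, RNA level is only one of its layers, and it is the only one measured here.

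The libraries held 49420082 to 64763412 counts, and the 10 genes together took between 0.101% (flat 2) and 0.147% (concave 1) of them. Early neuroepithelium markers summed to between 1080 and 1990 CPM (counts scaled to library size, here with edgeR's TMM factors), led by SOX2, OTX2 and ZIC2. HES5 was under 1 CPM in all 9 libraries, and PAX6, SOX1 and LHX2 reached at most 7.10, 4.91 and 4.20 CPM. Markers of the pluripotent state summed to between 2450 and 4250 CPM, led by LIN28A (1350 to 1790 CPM). Among them NANOG was under 1 CPM in all libraries, while POU5F1 lay between 206 and 512 CPM and DPPA4 between 229 and 518 CPM. In bulk RNA of this kind fewer cells of a type and less RNA per cell cannot be told apart. No library pair within a group differed by as little as counting noise, with a chi-square per degree of freedom of at least 19.69. The most alike pair of all was of different shapes, concave 2 and convex 2, at 9.165.

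Levels can be compared between genes only per transcript length, as a TPM-like value (CPM per kilobase, rescaled to 1 sum in every library). The length is the median over the GENCODE v29 transcripts tagged as principal, or over all transcripts of a gene without such a tag. By that measure PTK7 was the most abundant of the 10, at 224 ± 23.7 (SD, n = 9 libraries). VANGL2 followed at 87.5 ± 18.2, DVL2 at 50.5 ± 4.90, SCRIB at 41.9 ± 4.97 and CELSR2 at 41.2 ± 12.3. Lower down stood CELSR1 at 19.6 ± 5.69, VANGL1 at 19.3 ± 3.50, CELSR3 at 18.5 ± 4.51 and FUZ at 14.9 ± 1.75. PRICKLE1 was the least abundant, at 1.17 ± 0.358. The steps from PTK7 to VANGL2, VANGL2 to DVL2, DVL2 to SCRIB, CELSR2 to CELSR1 and FUZ to PRICKLE1 held in 9 of 9 libraries. SCRIB and CELSR2 were not separated (SCRIB was higher in 4 of 9 libraries), nor were CELSR1 and VANGL1 (6 of 9) or VANGL1 and CELSR3 (6 of 9). CELSR3 was above FUZ in 8 of 9. The place of VANGL1 rests on the transcript chosen. With its longest protein-coding model of 8691 bases in place of the length of 2265 bases used here, its level was 5.04.

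**Figure D1:**
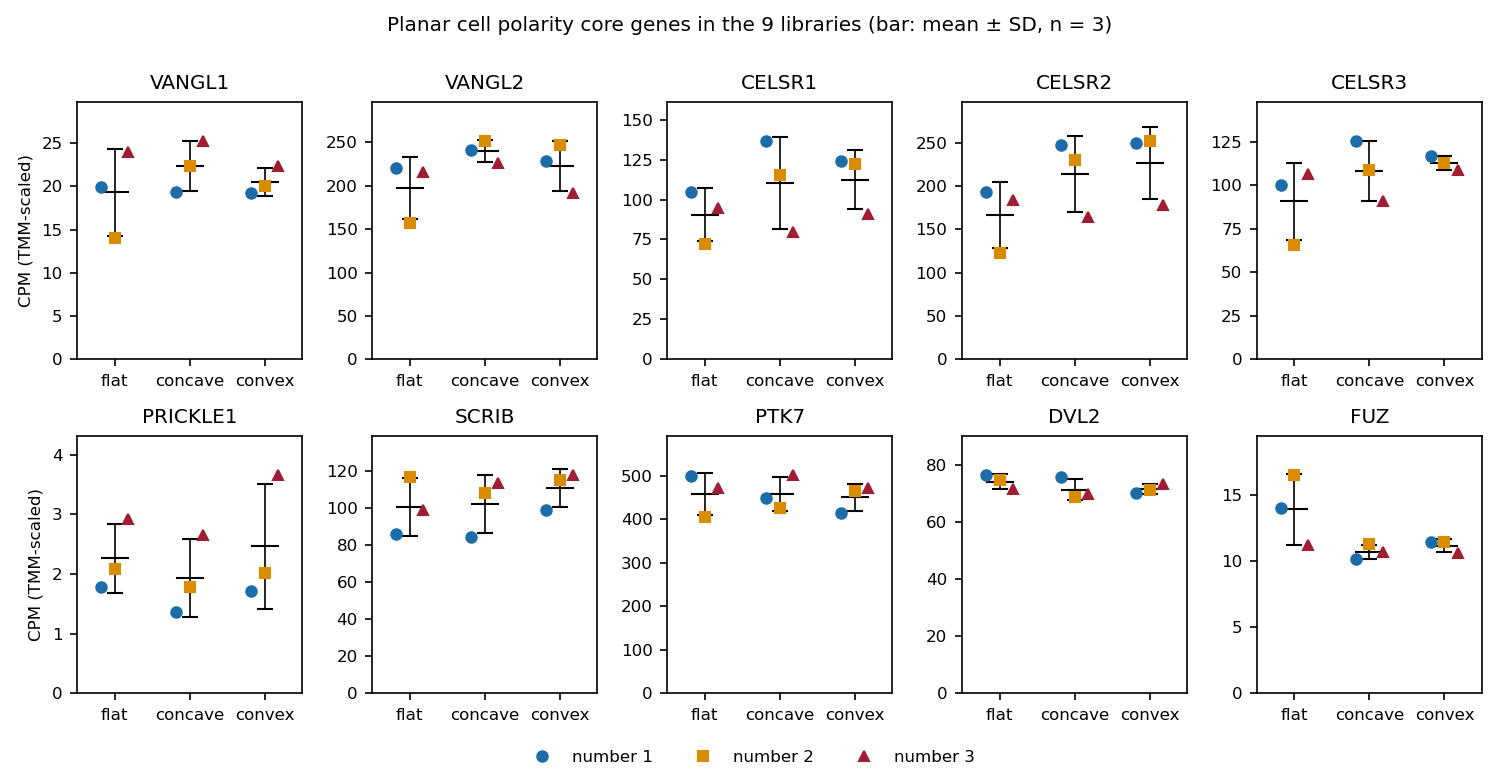
Each panel shows 1 gene, with CPM on the vertical axis from 0 and plate shape on the horizontal axis. Points are single libraries marked by replicate number, and bars give the mean ± SD of 3 libraries. CELSR2 ranged from 123 CPM in flat 2 to 252 CPM in convex 2, PRICKLE1 was highest in number 3 on every shape, and DVL2 stayed between 68.9 and 76.6 CPM.

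The test of plate shape called none of the 10 genes. In edgeR's quasi-likelihood test, with Benjamini-Hochberg adjustment over 23075 genes and a threshold of 0.05, concave against flat called 0 genes of all tested (0%) and 0 of the 10. Without adjustment, 1047 genes and 0 of the 10 had p under 0.05. The convex against flat test called 0 genes (0%), with 2135 genes and 0 of the 10 under 0.05 unadjusted. Concave against convex called 0 genes (0%), with 65 and 0 of the 10 unadjusted. Among the alternative tools, DESeq2 called 0, 1 and 0 genes in these 3 comparisons (1225, 2587 and 76 unadjusted), limma voom called 0 in each (930, 2183 and 65 unadjusted), and neither called any of the 10. The values behind these results follow by role, since the members did not vary alike.

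VANGL1 and VANGL2 are the human Van Gogh proteins, membrane proteins with 4 spans that recruit PRICKLE. VANGL2 (ENSG00000162738, chr1:160400586-160428678 on GRCh38, plus strand) gave 221, 157 and 216 CPM on flat plates 1 to 3, 241, 252 and 227 CPM on concave plates, and 229, 248 and 191 CPM on convex plates. Every concave library was above every flat one, by a small margin (227 against 221 CPM), and convex 3 fell between the flat libraries. VANGL2 was the only 1 of the 10 whose concave and flat groups did not overlap. Over all genes tested, 3.78% were wholly higher and 2.96% wholly lower on concave than on flat plates, 6.73% in either direction, so 1 of 10 is near that background. The log2 difference was 0.28 (SE 0.174, edgeR adjusted p = 0.841), and it was 0.14 without flat 2, the library with the lowest value. For convex against flat the log2 difference was 0.17, and 0.02 without flat 2.

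VANGL1 (ENSG00000173218, chr1:115641953-115698224, plus strand) was the less abundant VANGL gene by either measure. It gave 19.9, 14.0 and 24.0 CPM on flat plates, 19.4, 22.4 and 25.3 CPM on concave plates, and 19.3, 20.1 and 22.4 CPM on convex plates. Number 3 was the highest library of each shape, and flat 2 was again the lowest of all 9. The group means were 19.3 ± 5.01 (flat), 22.4 ± 2.94 (concave) and 20.6 ± 1.63 CPM (convex; SD, n = 3 each), and the groups overlapped.

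CELSR1, CELSR2 and CELSR3 are the 3 human Flamingo cadherins, 7-pass receptors whose long ectodomains bind each other across cell borders. CELSR2 (ENSG00000143126, chr1:109250019-109275750, plus strand) gave 193, 123 and 184 CPM on flat plates, 247, 231 and 164 CPM on concave plates, and 250, 252 and 179 CPM on convex plates. The curved plates numbered 1 and 2 were the 4 highest libraries, while concave 3 and convex 3 lay within the flat range. CELSR2 had a log2 difference of 0.36 for concave against flat (SE 0.231, edgeR adjusted p = 0.841) and of 0.44 for convex against flat (SE 0.231, edgeR adjusted p = 0.513). Its 95% interval for convex against flat ran from -0.07 to 0.96.

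CELSR1 (ENSG00000075275, chr22:46360834-46537170, minus strand), mutated in mouse lines with open neural tubes, gave 104.5, 72.2 and 94.5 CPM on flat plates, 137, 115 and 79.6 CPM on concave plates, and 124, 122 and 90.9 CPM on convex plates. As with CELSR2, the 4 highest libraries were the curved ones numbered 1 and 2. This split was picked from the values of these genes, and its share over all genes was not counted. CELSR3 (ENSG00000008300, chr3:48636469-48662915, minus strand), best known from axon guidance, gave 100.3, 65.4 and 107 CPM on flat plates, 125.5, 108.5 and 90.8 CPM on concave plates, and 117, 113 and 109 CPM on convex plates. CELSR3 was the only 1 of the 10 whose convex libraries were all above the flat ones. Over all genes tested, 8.91% were wholly higher and 7.76% wholly lower on convex plates, 16.7% in either direction, so this count too is near the background. Its log2 difference for convex against flat was 0.31 (SE 0.20, edgeR adjusted p = 0.555).

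Split by replicate number, the 3 CELSR genes differed between the pairs of same-numbered plates. CELSR2 on concave against flat plates differed by 0.36, 0.91 and -0.17 on the log2 scale for numbers 1, 2 and 3. On convex against flat plates the same gene gave 0.37, 1.03 and -0.05. CELSR1 gave 0.39, 0.68 and -0.25 for concave, and 0.24, 0.76 and -0.06 for convex plates. CELSR3 followed with 0.32, 0.73 and -0.23 for concave, and 0.22, 0.79 and 0.03 for convex plates. In each of these 6 series number 2 gave the widest gap, and number 3 gave a negative or near-zero one. The 6 series are not separate observations, since all subtract the same flat libraries. Every number 2 gap contains flat 2, the lowest library of each CELSR gene. Values by transcript length are given below for flat 2, and for CELSR2 in the libraries numbered 1 and 3. Flat and concave number 2 libraries also showed little sign of being paired (r of 0.02 between their deviations over all genes tested). With numbers 1 and 2 alone, the log2 differences of CELSR1, CELSR2 and CELSR3 were 0.51, 0.59 and 0.50 for concave against flat plates, and edgeR's adjusted p was at least 0.168.

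The promoter windows of CELSR2, CELSR3 and PRICKLE1 are shown because these genes had the widest range over the 9 libraries (2.05-fold, 1.92-fold and 2.67-fold from lowest to highest). Windows run from 250 bases before to 50 after the RefSeq start on GRCh38.p14, and 8 of the 10 genes had one. Capitals mark GC boxes, GGGCGG on either strand. The CELSR2 window (chr1:109249289-109249588, plus strand) lies just upstream of the GENCODE gene, the CELSR3 window (chr3:48662837-48663136, minus strand) spans its start, and the PRICKLE1 window (chr12:42483566-42483865, minus strand) belongs to a start inside the annotated locus.
CELSR2: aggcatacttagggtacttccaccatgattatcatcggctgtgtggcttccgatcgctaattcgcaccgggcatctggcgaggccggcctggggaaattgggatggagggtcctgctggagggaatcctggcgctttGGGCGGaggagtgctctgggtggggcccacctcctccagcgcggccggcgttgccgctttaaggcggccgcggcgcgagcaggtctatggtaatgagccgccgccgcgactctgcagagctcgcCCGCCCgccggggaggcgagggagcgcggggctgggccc
CELSR3: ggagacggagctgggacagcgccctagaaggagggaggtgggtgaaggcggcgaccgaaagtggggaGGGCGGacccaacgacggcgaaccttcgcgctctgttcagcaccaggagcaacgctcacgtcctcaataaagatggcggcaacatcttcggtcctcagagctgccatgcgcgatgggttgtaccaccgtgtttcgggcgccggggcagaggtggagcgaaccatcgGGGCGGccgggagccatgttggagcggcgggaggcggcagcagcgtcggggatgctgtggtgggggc
PRICKLE1: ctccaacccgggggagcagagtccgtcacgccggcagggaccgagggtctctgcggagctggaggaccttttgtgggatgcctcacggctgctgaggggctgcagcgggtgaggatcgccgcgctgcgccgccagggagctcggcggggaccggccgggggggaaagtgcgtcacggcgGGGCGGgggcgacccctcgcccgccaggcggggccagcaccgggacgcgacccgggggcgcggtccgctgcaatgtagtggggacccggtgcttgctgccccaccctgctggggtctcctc
CELSR2 and CELSR3 have 2 GC boxes each, and PRICKLE1 has 1. DVL2, which varied least of the 10 genes, also has 2 in its window. Of 35114 windows in the table, 45.0% hold at least 1 such match. The 3 windows hold 30, 30 and 33 CpG dinucleotides, against a median of 14 over all windows. Neither the E-box CACGTG (7.26% of all windows), the TEAD letters GGAATG (14.0%) nor the SOX letters ACAATG (10.8%), searched on both strands, occur in these 3. A match is a description of letters, and its absence says only that the letters are not in the window.

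Of the other membrane and scaffold members, PTK7 (ENSG00000112655, chr6:43076268-43161719, plus strand), a pseudokinase receptor that joins Wnt and polarity signalling, gave 500.2, 406 and 472 CPM on flat plates, 448, 426 and 502 CPM on concave plates, and 415, 464 and 472 CPM on convex plates. Its lowest and highest libraries differed by only 1.24-fold, and the 3 shapes overlapped fully. The 95% interval of its log2 difference between concave and flat plates ran from -0.34 to 0.33. SCRIB (ENSG00000180900, chr8:143790920-143815379, minus strand), a basolateral scaffold that binds VANGL2, gave 85.9, 117 and 99.0 CPM on flat plates, 84.5, 108 and 114 CPM on concave plates, and 99.1, 115 and 118 CPM on convex plates. SCRIB was lowest in number 1 on each shape. It differed from the CELSR genes in flat 2, which held the second highest SCRIB value and the lowest CELSR values.

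DVL2 (ENSG00000004975, chr17:7225341-7234545, minus strand) is a Dishevelled adaptor that carries Frizzled signals into the cell. DVL2 gave 76.6, 74.8 and 71.6 CPM on flat plates, 75.8, 68.9 and 69.9 CPM on concave plates, and 70.2, 71.5 and 73.5 CPM on convex plates. It varied least of the 10, by 1.11-fold from lowest to highest, and its concave against flat interval was -0.34 to 0.22 on the log2 scale.

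FUZ (ENSG00000010361, chr19:49806869-49817376, minus strand) belongs to the CPLANE group, which acts downstream of the core in building cilia. FUZ gave 14.0, 16.5 and 11.2 CPM on flat plates, 10.2, 11.3 and 10.7 CPM on concave plates, and 11.4, 11.5 and 10.6 CPM on convex plates. Flat 1 and flat 2 were above all curved libraries, while flat 3 lay among them. Of the 10 genes FUZ had the smallest p for concave against flat, with a log2 difference of -0.38 (SE 0.193, 95% interval -0.81 to 0.05, edgeR adjusted p = 0.841), and of -0.32 for convex against flat (SE 0.193, adjusted p = 0.545). Without flat 2 these were -0.23 and -0.18. FUZ overlaps an opposite-strand end of AP2A1 by 245 bases and an antisense gene by 806 bases in GENCODE v29, and whether the authors counted by strand is not given in the sources used here, so reads of these genes cannot be told apart.

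**Figure D2:**
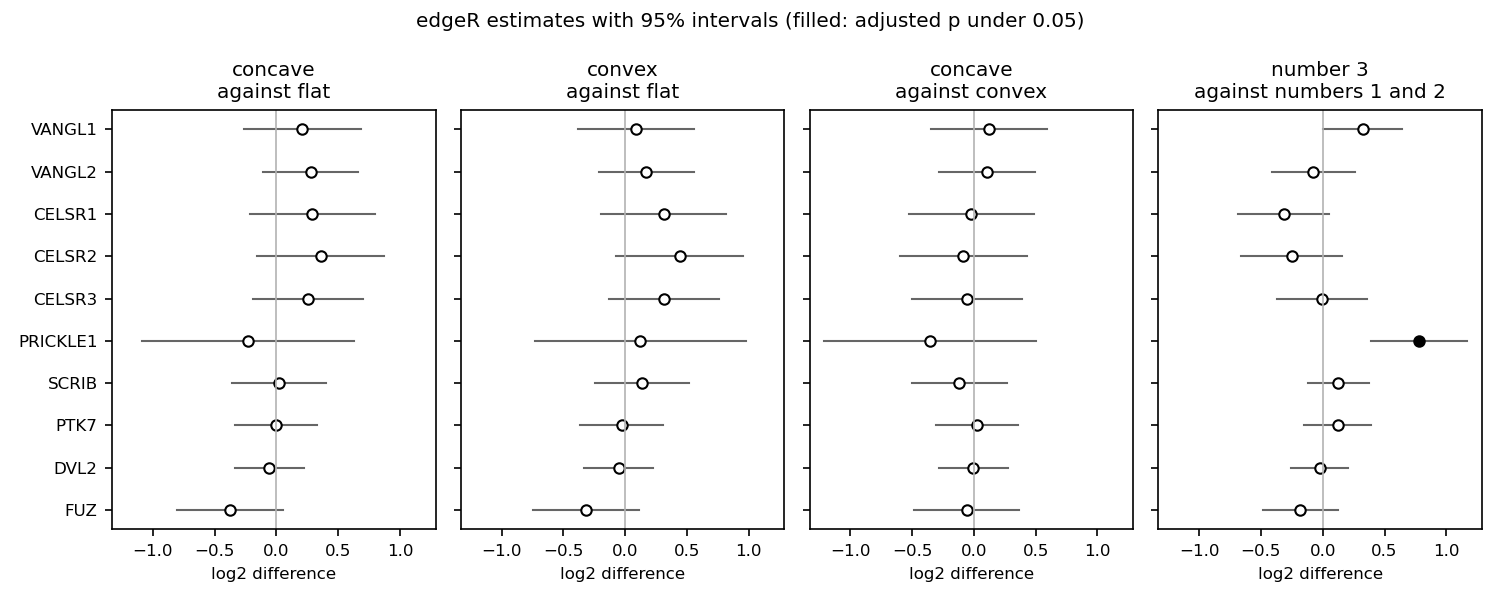
Points are edgeR log2 differences for the 10 genes in 4 comparisons, lines are 95% intervals, and a filled point has an adjusted p under 0.05. All 30 intervals for plate shape cross 0, and PRICKLE1 in number 3 against numbers 1 and 2, at 0.78, is the only filled point.

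Considered as a list, the 10 genes had a median log2 difference of 0.12 for concave against flat, with 6 higher and 4 lower, beside 0.01 over all genes tested. On convex plates the median was 0.13, with 7 higher and 3 lower, beside 0.01 over all genes. The 2 comparisons share the flat libraries. For concave against convex, which leaves the flat libraries out, the median was -0.04, with 3 higher and 7 lower, and 0 of the 10 were separated, beside 1.49% of all genes wholly higher and 2.08% wholly lower on concave plates (3.56% in either direction). PRICKLE1, SCRIB and VANGL2 had the smallest p there, with log2 differences of -0.35 (SE 0.385), -0.12 (SE 0.172) and 0.11 (SE 0.174), each with an edgeR adjusted p of 1.

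Flat 2 stood apart in the members' values. It held the lowest value of 6 of the 10 genes (VANGL1, VANGL2, CELSR1, CELSR2, CELSR3 and PTK7) and the highest value of FUZ. Over all genes tested, 30.0% had their lowest value in flat 2. The share was 66.3% among the 1031 genes with transcripts over 8 kb and 18.3% among the 9627 under 2 kb. The CELSR transcripts are 10534 to 11956 bases long, VANGL2's is 5340 bases and FUZ's is 1675 bases.

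In flat 2 the median log2 deviation from the 9-library mean, over all genes tested, was 0.29 under 1 kb and -0.61 over 8 kb. The other 8 libraries lay between -0.16 and 0.21 over 8 kb. CELSR1, CELSR2 and CELSR3 deviated by -0.50, -0.68 and -0.65 in flat 2, where a curve fitted to all genes gave -0.62, -0.60 and -0.63 at their lengths. VANGL2 deviated by -0.48 (curve -0.37) and FUZ by 0.48 (curve 0.28). VANGL1 and SCRIB went the other way from the curve, with -0.54 (curve 0.13) and 0.17 (curve -0.36). The curve left 0 in other libraries as well. At the length of CELSR2 it gave -0.15 in flat 1, 0.17 in concave 1 and 0.18 in convex 1. CELSR2 deviated there by -0.03, 0.32 and 0.34. In flat 3, concave 3 and convex 3 the curve gave 0.11, -0.13 and 0.21, and CELSR2 deviated by -0.10, -0.27 and -0.15.

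**Figure D3:**
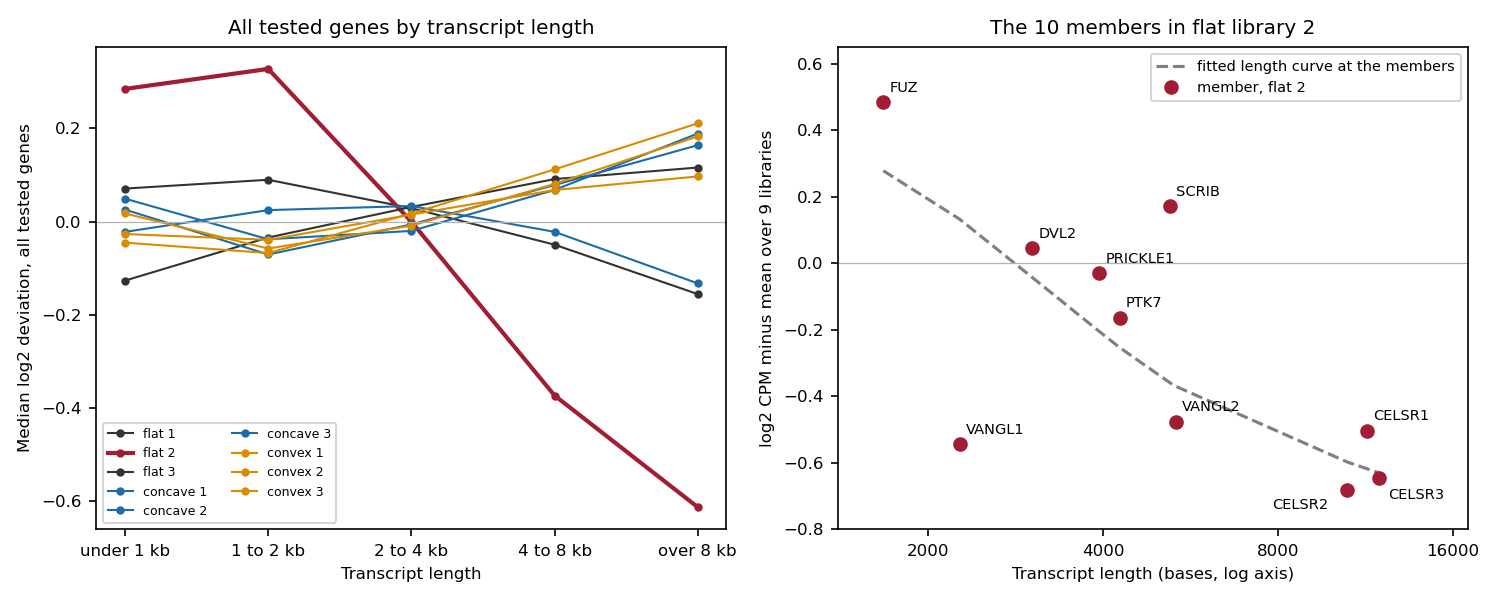
On the left, the median log2 deviation of all tested genes is drawn by transcript length class, 1 line per library; flat 2 runs from 0.29 under 1 kb to -0.61 over 8 kb. On the right, the 10 genes in flat 2 are placed by transcript length (log axis) and log2 deviation, with the fitted length curve dashed; the 3 CELSR genes and VANGL2 lie near it, VANGL1 and SCRIB away from it.

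With an offset that removes this length curve from every library, CELSR1, CELSR2 and CELSR3 differed by -0.02, 0.08 and -0.03 between concave and flat plates. Between convex and flat plates they differed by -0.07, 0.10 and -0.06. CELSR2 and FUZ kept their sign (FUZ -0.24 and -0.16), CELSR1 and CELSR3 changed theirs, and the median over the 10 genes moved to -0.04 and -0.06. How much of the CELSR differences goes with transcript length, in flat 2 and in the other libraries, and how much with plate shape was not tested. Leaving flat 2 out instead gave CELSR log2 differences of 0.16, 0.19 and 0.07 for concave and 0.17, 0.26 and 0.12 for convex plates.

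Replicate number was the second label on the libraries, and the labels do not say what a number stands for. PRICKLE1 (ENSG00000139174, chr12:42456757-42590355, minus strand), a cytoplasmic LIM-domain partner of VANGL, was the 1 member called for number 3 against numbers 1 and 2 with all 9 libraries and no length offset. On flat plates 1 to 3 PRICKLE1 gave 1.79, 2.08 and 2.92 CPM. Concave plates gave 1.37, 1.78 and 2.65 CPM and convex plates gave 1.72, 2.02 and 3.66 CPM, from 94 to 208 counts a library. Every number 3 library was above every other library. Over all genes tested, 11.7% were wholly higher and 12.5% wholly lower in number 3 than in numbers 1 and 2, 24.2% in either direction. The mean was 3.08 ± 0.524 CPM in number 3 (SD, n = 3) and 1.79 ± 0.251 CPM in numbers 1 and 2 (SD, n = 6).

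The log2 difference was 0.78 (SE 0.174, edgeR adjusted p = 0.0161), a 1.72-fold higher level. This contrast called 4137 of 23075 genes (17.9%), 8.79% of all genes as higher and 9.14% as lower, so 1 call among 10 is no more than the background. The call count fell to 1077 genes when convex 3 was dropped, to 2035 for concave 1, to 2033 for convex 1 and to 2389 for convex 2. Number 3 was known from earlier results of these data to stand apart. The F test over all 3 numbers called 2714 genes (11.8%) and, of the 10, again PRICKLE1 (edgeR adjusted p = 0.0398). PRICKLE1's call for number 3 was lost when any 1 of 5 libraries was left out. The edgeR adjusted p rose to 0.0633 when concave 1 was dropped and to 0.0571 for concave 3. Dropping convex 1, 2 or 3 gave 0.0732, 0.065 and 0.145. The log2 difference lay between 0.68 and 0.85 with each library left out. PRICKLE1 overlaps opposite-strand PPHLN1 by 2959 bases and an antisense gene by 6763 bases, and on its own strand a gene within its intron (AC079600.3) by 4667 bases.

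Among the other members, VANGL1 had a log2 difference of 0.32 for number 3 against numbers 1 and 2 (unadjusted p = 0.0495 and adjusted p = 0.153 in edgeR). CELSR1 and CELSR2 had -0.32 (adjusted p = 0.216) and -0.25 (adjusted p = 0.376). With the length offset both were called lower in number 3, at -0.41 (edgeR adjusted p = 0.0114) and -0.34 (edgeR adjusted p = 0.0408). Without flat 2 they were also called, at -0.44 (edgeR adjusted p = 0.0235) and -0.41 (edgeR adjusted p = 0.0271). Over all genes the contrast called 5575 without flat 2, beside 4137 (17.9%) with all 9 libraries. The number called over all genes with the length offset is not given here. The calls with the length offset therefore cannot be set beside a background, and neither pair of calls is read as a result about these genes. Number 2 against number 1 called 0 genes (0%) in edgeR, with 1970 unadjusted, while DESeq2 called 154 and limma voom 0. SCRIB was the 1 member whose number 2 libraries were all above its number 1 libraries, which held for 6.75% of all genes, with 8.1% wholly lower and 14.9% separated in either direction. Its log2 difference was 0.34 (SE 0.126, edgeR adjusted p = 0.547).

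**Figure D4:**
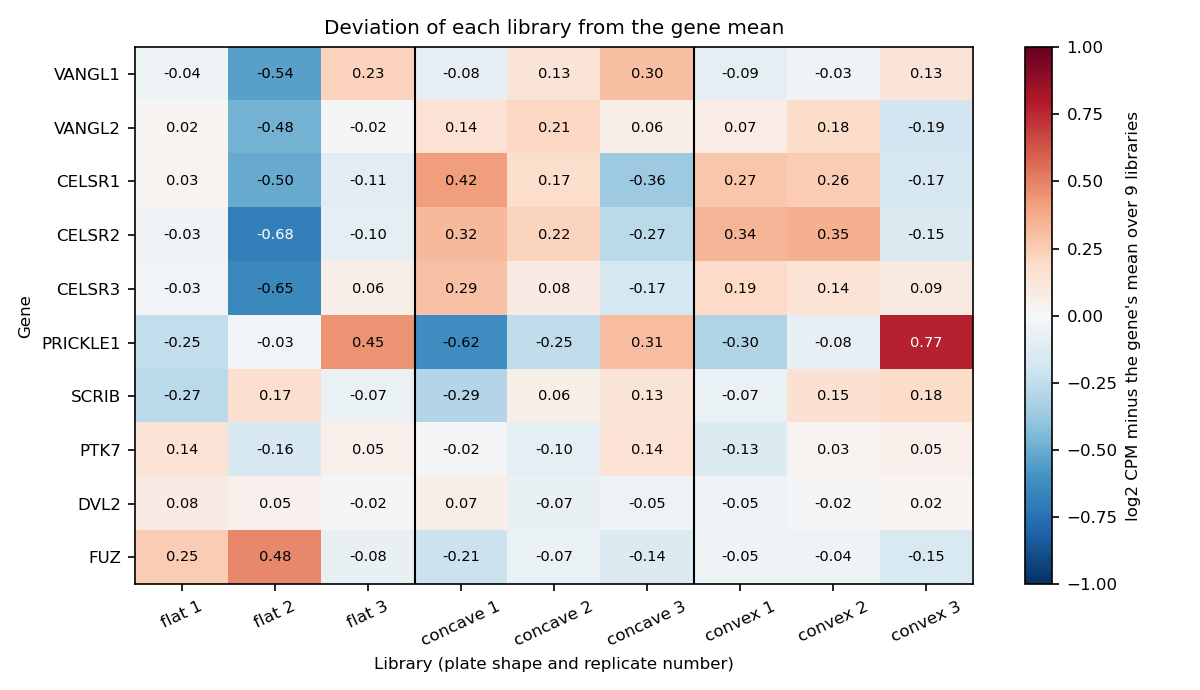
Rows are the 10 genes and columns the 9 libraries; colour and printed values give log2 CPM minus the gene's mean over 9 libraries. Flat 2 is low for the CELSR and VANGL genes (-0.68 for CELSR2) and high for FUZ (0.48), and PRICKLE1 is high in the number 3 libraries (0.45, 0.31 and 0.77).

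Markers moved with number 3 beside PRICKLE1. The summed early neuroepithelium list was 1080 to 1330 CPM in number 3 and 1750 to 1990 CPM in numbers 1 and 2, with 6 of 9 tested members called lower and 0 higher. The pluripotency list was 4100 to 4250 CPM against 2450 to 2920 CPM, with 7 of 8 members called higher. Mesendoderm markers summed to 7.40 to 12.2 CPM against 1.23 to 2.03 CPM, with 2 of 4 tested members called higher and 0 lower. Most of that sum in number 3 was 1 gene, FOXA2, at 5.13, 5.90 and 10.45 CPM, against at most 0.66 CPM in numbers 1 and 2. MIXL1, EOMES, SOX17, GSC and MESP1 were under 1 CPM in all libraries. Non-neural ectoderm and amnion markers summed to 168 to 213 CPM against 82.0 to 155 CPM, with 2 of 4 tested members called higher and 0 lower. That sum was mostly KRT18 (59.5 to 172 CPM over the 9 libraries) and KRT7 (16.1 to 37.1 CPM), and 6 of 9 members were under 1 CPM in all. Neural crest markers summed to 8.22 to 9.54 CPM against 9.89 to 15.1 CPM, with 1 of 4 tested members called higher and 1 lower. Neuron markers summed to 35.2 to 41.3 CPM against 42.7 to 73.6 CPM, with 1 of 4 tested members called higher and 2 lower. Their part in the PRICKLE1 difference was not tested. By plate shape no marker in any of these lists was called, and the neuroepithelium sums overlapped (1330 to 1930 CPM flat, 1270 to 1910 CPM concave and 1080 to 1990 CPM convex).

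A further 75 genes of the pathway were listed by role, and 74 were tested, WNT7A being too low. By plate shape 0 of 74 were called in any comparison, with 2, 6 and 0 of them under an unadjusted p of 0.05 for the 3 pairs of shapes in the order given above. By number 3 against numbers 1 and 2, 16 of 74 were called, 9 higher and 7 lower, beside the 17.9% of all genes. Without convex 3, 5 of the 74 were called.

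Ligands and receptors had 8 of 15 tested members called, 6 higher and 2 lower, beside 8.79% of all genes called higher and 9.14% lower. Their median log2 difference was 0.46 beside 0.01 over all genes, and 3 were called without convex 3. Both this contrast and the gene lists were chosen with earlier results of these data known, so these counts only describe that split. FZD7, a Frizzled receptor, gave 1416, 1420 and 1427 CPM in number 3 and 595 to 940.2 CPM in numbers 1 and 2, a log2 difference of 0.91 (SE 0.138, edgeR adjusted p = 0.00327). GPC4, a glypican co-receptor on the cell surface, gave 1217 to 1348 CPM in number 3 and 542 to 839 CPM in the rest, a difference of 0.85 (SE 0.138, edgeR adjusted p = 0.00438). WNT4 (log2 difference 1.42), WNT7B (1.06), WNT5A (0.75), which is a ligand of the polarity branch, and FZD8 (0.46) were also higher. ROR2, a WNT5A receptor, gave 25.7 to 37.7 CPM in number 3 and 51.8 to 73.6 CPM in numbers 1 and 2, so that it was lower by a log2 difference of -0.87 (SE 0.155, edgeR adjusted p = 0.00625), and FZD1 was lower too (-0.50). The ligand WNT5A and its receptor ROR2 differed in opposite directions.

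None of the counts by role in this paragraph exceeds the 17.9% share of all genes called by this contrast. Of the other core and adaptor genes 3 of 19 were called, 1 higher and 2 lower. DACT1, a Dishevelled regulator, was higher (1.41), and INVS, the Inversin gene, was lower (-0.65). CPLANE and ciliary genes had 1 of 10 called, IFT172 of the intraflagellar transport machinery (-0.51). Fat-Dachsous genes had 1 of 7, FJX1, which encodes the human Four-jointed homologue (-0.93). Among actomyosin and kinase effectors 3 of 23 were called. TNIK (1.40) and MYL9, a myosin light chain (0.92), were higher, and MAPK10, a neural JNK kinase, gave 33.8 to 46.4 CPM in number 3 and 100.3 to 165 CPM in numbers 1 and 2 (-1.83, SE 0.171, edgeR adjusted p = 0.00046). The marker sums above moved with the same libraries, and their part in these differences was not tested.

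**Figure D5:**
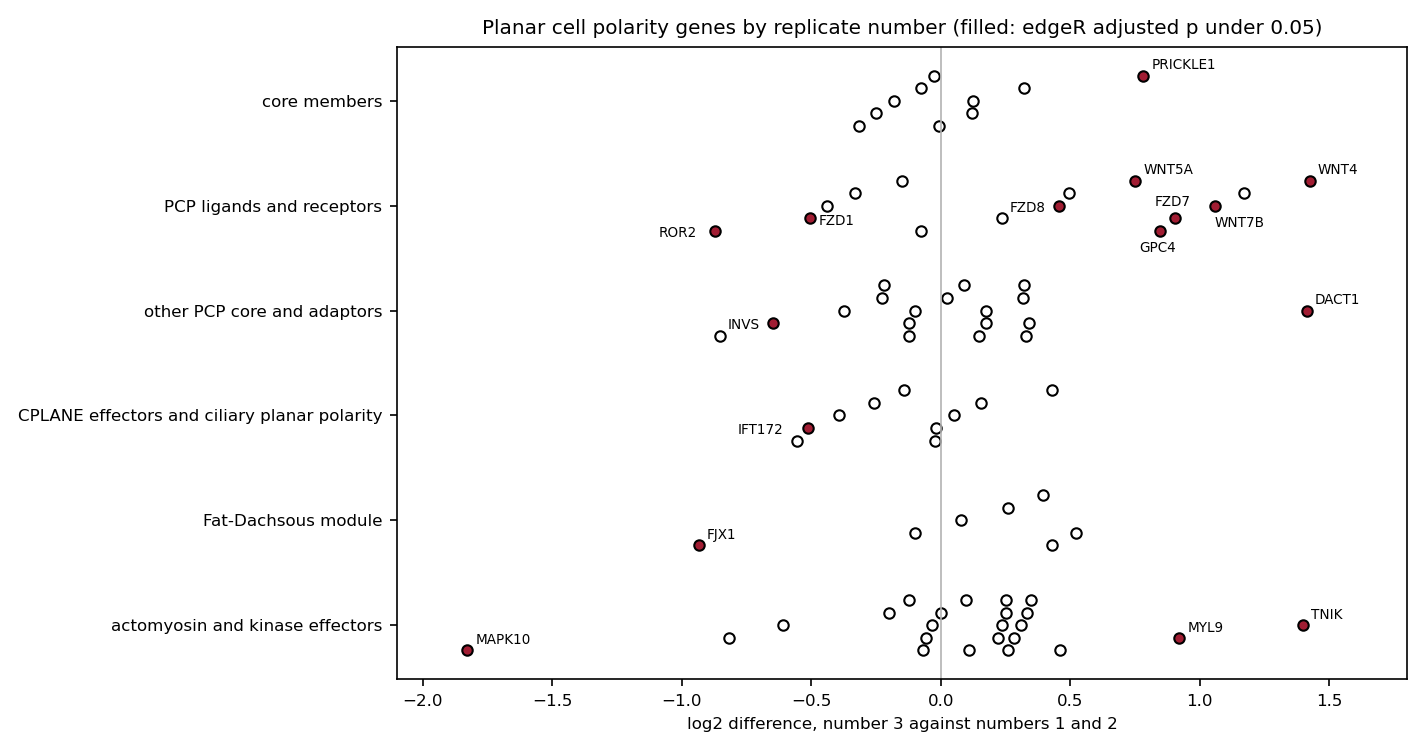
Each point is 1 gene placed by its log2 difference between number 3 and numbers 1 and 2, in rows by role, and filled points have an edgeR adjusted p under 0.05 (1 called adaptor gene is not drawn). Ligands and receptors have 8 filled points, from ROR2 at -0.87 to WNT4 at 1.42; PRICKLE1 at 0.78 is the only filled core member, and MAPK10 lies lowest at -1.83.

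The Fat-Dachsous cadherins form a second planar polarity module beside the core, and 6 of the 7 genes had their lowest value in flat 2. Those 6 have transcripts of 10765 to 19030 bases, and 66.3% of all genes over 8 kb were lowest in flat 2. The transcript of the other, FJX1, is 2450 bases long. FAT4, a giant cadherin, gave 17.7, 12.1 and 31.8 CPM on flat plates, 33.6, 50.3 and 23.6 CPM on concave plates, and 38.7, 46.9 and 37.2 CPM on convex plates. All 3 convex libraries were above all 3 flat ones, as for 8.91% of all genes (16.7% separated in either direction), while concave 3 was within the flat range. Its log2 difference was 0.80 for concave against flat (SE 0.354, edgeR adjusted p = 0.841) and 0.99 for convex against flat (SE 0.355, edgeR adjusted p = 0.513). It was 0.54 and 0.72 without flat 2, 0.51 and 0.62 with the length offset, and 1.49 and 1.51 with libraries numbered 1 and 2 alone (edgeR adjusted p = 0.139 and 0.168). The module's median was 0.51 and 0.67 for the 2 comparisons, 0.30 and 0.40 without flat 2, and 0.27 and 0.32 with the length offset. With libraries numbered 1 and 2 alone it was 0.92 and 1.00. These alternatives for the module, FAT4 and RHOA were chosen after seeing the data. FAT4's transcript is 16123 bases long. GIPC1, an adaptor that binds VANGL2, had the smallest p of all 74 in the F test of shape (unadjusted p = 0.0394, edgeR adjusted p = 0.971), with 83.9, 118 and 71.1 CPM on flat, 58.2, 61.3 and 74.0 CPM on concave and 62.9, 69.7 and 57.0 CPM on convex plates. Its transcript is 1782 bases long, and flat 2 was its highest library.

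The remaining genes with the smallest p by shape in each list were not called either (edgeR adjusted p of at least 0.513 in every pair of shapes). RHOA, the small GTPase downstream of DVL, gave 288, 424.5 and 234 CPM on flat plates, 227, 204 and 266 CPM on concave plates, and 216, 229 and 206 CPM on convex plates. Flat 2 was its highest library, and its log2 difference was -0.44 for concave and -0.54 for convex plates against flat ones, or -0.16 and -0.27 without flat 2, and -0.74 and -0.69 with libraries numbered 1 and 2 alone. MYL12B, a myosin light chain, differed by -0.43 and -0.49. CPLANE1, a partner of FUZ in the CPLANE complex, differed by 0.59 and 0.69, with its lowest value, 17.5 CPM, in flat 2 and a transcript of 11130.5 bases. KIF3A, a motor subunit of ciliary transport, differed by 0.39 and 0.34, FAT1 by 0.56 and 0.67, DVL3 by 0.22 and 0.31, and FZD1 by 0.35 and 0.40. WNT11 was under 1 CPM in all 9 libraries.

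The genes most like the 3 most variable members were found by the root mean square difference of mean-centred log2 CPM over the 9 libraries, among 11954 genes averaging at least 5 CPM. For CELSR2 (SD 0.35 on the log2 scale) they were NOTCH3 (0.05), BCL9 (0.07) and SALL1 (0.07). NOTCH3, a Notch receptor, gave 286, 170.3 and 268 CPM on flat, 342, 320.5 and 239.5 CPM on concave and 331.5, 348 and 263 CPM on convex plates, so that flat 2 was the lowest library and number 3 was below numbers 1 and 2 on both curved shapes. For CELSR1 (SD 0.31) they were RTTN (0.05), RSBN1 (0.06) and DIP2C (0.07). For PRICKLE1 (SD 0.43) they were TIMM44 (0.11), PPAN (0.11) and UBALD1 (0.12). These are descriptions over 9 libraries that share depth and length effects, and no test was made.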

How the data were processed

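The members and every gene list were chosen with earlier results of these data known. Values are the authors' deposited raw counts per gene for 9 poly-A, strand-specific libraries. Per the submitters' processing notes, HISAT2, featureCounts and GRCh38 were used. Tool versions, the annotation release and the strand option of the counting are not stated there. GENCODE v29 gave coordinates and lengths for 58274 of 62710 genes, and 62639 had a symbol. Each count column was matched to its library by plate shape and replicate number, and 0 other columns were present.

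Genes passing filterByExpr (23075) were tested over all 9 libraries with edgeR 4.0.16 (TMM, robust quasi-likelihood F test, two-sided, Benjamini-Hochberg adjustment, threshold 0.05) in R 4.3.3. Plate shape was fitted alone, replicate number together with shape. The biological coefficient of variation was 32.9% in the first fit and 21.7% in the second. The code was tested on simulated data. Log2 deviations use a prior count of 2, and the length curve is a lowess with a span of 0.3. Per comparison of shapes, fold changes are given for the 3 members with the smallest p, and others are given where a result turns on them. From each pathway list, with 1 called gene not reported here, up to 4 called genes per direction and the 2 genes with the smallest p by shape were named by rule; WNT5A and FZD8 were added after their values were seen. Library totals were 49420082 to 64763412, and PRICKLE1 had the fewest counts of the 10 genes (94 to 208 a library).

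Same-numbered libraries deviated together by r of 0.372, 0.397 and 0.620 for flat and convex plates (numbers 1 to 3), 0.579, 0.290 and 0.612 for concave and convex plates, and 0.379, 0.02 and 0.338 for flat and concave plates, above the set minimum of 0.1 in all pairs but the flat and concave number 2. Alternatives were DESeq2 1.42.0, limma voom 3.58.1, other scalings and filters, a replicate block, a length offset and leaving out each library. A comparison of member proteins was not analysed here.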

Additional observations from a re-analysis of the deposited data

How the results depend on the processing

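No member was called by plate shape under any of the 20 alternatives to each pairwise comparison or the 19 to the F test of shape. Convex against flat called 1 gene with DESeq2 and 0 otherwise. CELSR3 for convex against flat changed sign with the length offset (-0.0613, and -0.0597 with the replicate block as well). PRICKLE1 and SCRIB for concave against convex changed sign without convex 3 (0.046) and without concave 1 (0.00914); their ranges with each library left out were -0.627 to 0.046 and -0.189 to 0.00914. The cause was not tested.

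By the set minimum of 0.1, the number paired libraries across shapes in all pairs but flat and concave number 2 (r of 0.02). With the replicate block 0 genes were called in any shape comparison. FUZ for concave against flat was -0.36 in that paired fit (edgeR adjusted p = 0.506), and the block changed no call by shape.

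The F test of number called 4087 genes with no filter, 4465 with DESeq2, 4166 with the length offset, and 352 (without convex 3) to 4999 (without flat 2) with each library left out. Of the members it called 0 by library size alone, 2 with the length offset and 0 to 2 with each library left out. Number 3 against numbers 1 and 2 called 1077 to 5575 genes with each library left out, the fewest without convex 3. It called 3 members with the length offset, for which the number called over all genes is not given here, and 0 to 3 with each library left out. Pathway genes called ranged from 5 to 23 and ligands and receptors from 3 to 11, both lowest without convex 3. Number 2 against number 1 called 1 gene with DESeq2 size factors, 108 with no filter, 154 with DESeq2, 2 with the length offset and 0 to 11 with each library left out. Fewer libraries shrink the design, and the cause of the other shifts was not tested.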
